A study of Mus musculus with 9 samples.

Results

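Transcription of 8 genes that encode lineage transcription factors of macrophages was followed in bone marrow-derived macrophages: Spi1, Cebpa, Cebpb, Cebpd, Maf, Runx1, Gfi1 and Bhlhe40. They were chosen by gene symbol, among 46095 symbols listed, and all 8 were found and passed the filter on low counts. RNA was sequenced in 9 libraries, 3 of cells given LPS plus BHB, 3 of cells given LPS and 3 of control cells. All came from wild type mice of the Balb/c strain, with an age of 6 weeks in the labels. The labels spell out neither agent and give no dose or time, and no group was given BHB alone. The usual reading of LPS is lipopolysaccharide, which macrophages sense through a Toll-like receptor as a sign of bacteria, and that of BHB is beta-hydroxybutyrate, a ketone body. Whether replicates came from different cultures or animals is not in the labels. The p-values therefore cover the spread among these libraries alone, which may be technical.

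Macrophages arise from marrow progenitors under a small set of DNA-binding proteins. PU.1, encoded by Spi1, opens myeloid enhancers, RUNX1 and C/EBP-alpha act with it in progenitors, and C/EBP-beta and C/EBP-delta are the inducible C/EBP proteins of inflammation and the acute phase. c-MAF acts in mature resting macrophages, where it restrains self-renewal and drives genes such as the complement C1q genes and Il10. GFI1 is a zinc-finger repressor that favours granulocytes over monocytes, and BHLHE40 is a repressor of E-box genes that is known to restrain Il10.

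The libraries held 29633411 to 32798920 counts, and all 11 macrophage markers tested, among them Csf1r, Itgam and Cd68, had counts in every group. Their summed level was 17843 to 18398 CPM (counts per 1000000 of the TMM-scaled library total) in the LPS plus BHB libraries, 12264 to 13748 CPM in the LPS libraries and 23726 to 27284 CPM in the control libraries. Lyz2 was the largest part in each group, with means of 5883, 5061 and 14575 CPM in that order. Marco, also on the list, averaged only 0.00939 CPM in control. Summed granulocyte markers, whose precursors express Gfi1 and Cebpa strongly, reached 6.18 to 9.70 CPM in LPS plus BHB, 3.92 to 6.36 CPM in LPS and 19.6 to 21.1 CPM in control. Most of the control sum was Mmp8, which averaged 1.54 CPM in LPS plus BHB, 1.99 CPM in LPS and 13.98 CPM in control. Mpo, Elane, Prtn3, Ctsg and Ly6g each averaged at most 0.276 CPM in any group. Of the 13 granulocyte markers, 3, 5 and 0 were at 0 in all libraries of those 3 groups, and their part in the results was not tested. Differences were tested with edgeR's quasi-likelihood test and Benjamini-Hochberg adjustment over the 14026 genes tested, and a gene is called where the adjusted p is under 0.05. In LPS against control 5390 genes were called higher and 5801 lower, and with library totals in place of TMM these counts were 4283 and 7084. In LPS plus BHB against control they were 5328 and 5662, and 3922 and 7366 with library totals. Changes below are relative to this TMM scaling, which differs from library totals by a median of 0.05, 0.27 and 0.33 on the log2 scale in LPS plus BHB against LPS, LPS against control and LPS plus BHB against control.

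Promoter sequences of 4 of the 8 genes were taken from RefSeq, build GRCm38.p6, each 250 bases before to 50 after an annotated start. These are the genes with an entry in the RefSeq table used, and they include a pair of C/EBP genes that moved in opposite directions with LPS. Capitals mark matches on either strand to 12 short motifs. The Cebpa promoter is chr7:35119043-35119342 (plus strand), the Cebpb promoter chr2:167688665-167688964 (plus strand), the upstream Runx1 promoter chr16:92826025-92826324 (minus strand) and the upstream Gfi1 promoter chr5:107725756-107726055 (minus strand). Spi1, Cebpd, Maf and Bhlhe40 are named only.
Cebpa: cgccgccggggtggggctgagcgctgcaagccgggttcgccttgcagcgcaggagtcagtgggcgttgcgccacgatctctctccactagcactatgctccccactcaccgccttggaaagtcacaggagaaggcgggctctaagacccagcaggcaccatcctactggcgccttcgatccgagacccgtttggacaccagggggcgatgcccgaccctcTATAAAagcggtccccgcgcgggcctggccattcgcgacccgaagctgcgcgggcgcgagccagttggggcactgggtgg
Cebpb: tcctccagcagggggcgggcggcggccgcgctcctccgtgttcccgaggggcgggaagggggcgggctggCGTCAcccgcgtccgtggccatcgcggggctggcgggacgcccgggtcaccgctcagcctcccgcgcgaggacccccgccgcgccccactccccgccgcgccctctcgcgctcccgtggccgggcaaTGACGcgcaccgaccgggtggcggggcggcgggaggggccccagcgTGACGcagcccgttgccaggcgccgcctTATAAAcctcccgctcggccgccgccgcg
Runx1: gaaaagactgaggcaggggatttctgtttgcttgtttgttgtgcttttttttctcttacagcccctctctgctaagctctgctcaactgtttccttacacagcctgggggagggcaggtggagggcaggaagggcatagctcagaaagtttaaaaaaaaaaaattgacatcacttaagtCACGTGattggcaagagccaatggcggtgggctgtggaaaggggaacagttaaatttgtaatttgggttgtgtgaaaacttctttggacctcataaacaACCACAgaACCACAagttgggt
Gfi1: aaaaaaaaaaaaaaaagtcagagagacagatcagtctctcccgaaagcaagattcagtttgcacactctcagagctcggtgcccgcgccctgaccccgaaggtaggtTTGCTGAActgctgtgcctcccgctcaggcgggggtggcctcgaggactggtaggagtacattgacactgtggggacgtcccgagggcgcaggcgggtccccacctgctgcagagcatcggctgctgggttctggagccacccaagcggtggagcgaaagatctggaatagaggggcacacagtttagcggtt
In Cebpa the capitals are a TATA box (TATAAA) whose first base lies at -30 from the start. In Cebpb they are 3 copies of the CRE core (TGACG, read as CGTCA on the minus strand) beginning at -180, -53 and -7, and TATAAA at 22. The upstream Runx1 promoter held the palindromic E-box CACGTG at -71 and the RUNX motif TGTGGT on the minus strand, as ACCACA, at 29 and 37. The Gfi1 promoter held the C/EBP motif TTGCNNAA at -143, in which the MAF core motif TGCTGA at -142 overlaps it.

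The other RefSeq promoters of Runx1 and Gfi1 held no match. Such matches are common. Among 32851 promoters of the same length, 10.8% held TTGCNNAA, 16.8% TGTGGT, 7.15% CACGTG, 19.5% TGCTGA, 20.8% TGACG and 13.6% TATAAA. The other motifs searched had no match in the 4 printed promoters. They were the PU.1 motif GAGGAAG (13.6% of all promoters), the GFI1 motif AAATCA (14.0%), the AP-1 motif TGANTCA (7.81%), the CRE TGACGTCA (1.79%), the NF-kB motif (1.47%) and the STAT motif TTCNNNGAA (8.3%). A match here is a description of letters and not a binding site. The Cebpb promoter had 50 CpG dinucleotides and 80.67% G plus C, and 99.14% of all promoters had fewer CpG. The Cebpa promoter had 29 CpG, and the upstream Runx1 promoter had 2 at 45.0% G plus C, against a median of 7 over all promoters.

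Spi1, at chr2:91082390-91115756 on the plus strand of GRCm38, was higher with LPS and less so when BHB was present. It had 629.8, 593 and 596 CPM in the LPS plus BHB libraries, 771, 765 and 713 CPM in the LPS libraries and 384, 398 and 374 CPM in the control libraries. No 2 groups overlapped. By edgeR's quasi-likelihood test the log2 fold change was -0.31 (SE 0.05, adjusted p = 8.84e-06) in LPS plus BHB against LPS and 0.96 (SE 0.05, adjusted p = 4.45e-14) in LPS against control. In LPS plus BHB against control it was 0.65 (SE 0.05, adjusted p = 3.27e-11). In bulk RNA, fewer cells of a type and less RNA per cell cannot be told apart, here and for each gene below. Counts per exon length put Spi1 above at least 98.5% of tested genes in each group, with 225 ± 7.58 CPM per kb in LPS plus BHB, 278 ± 11.7 in LPS and 143 ± 4.38 in control (SD, n = 3 each).

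**Figure D1:**
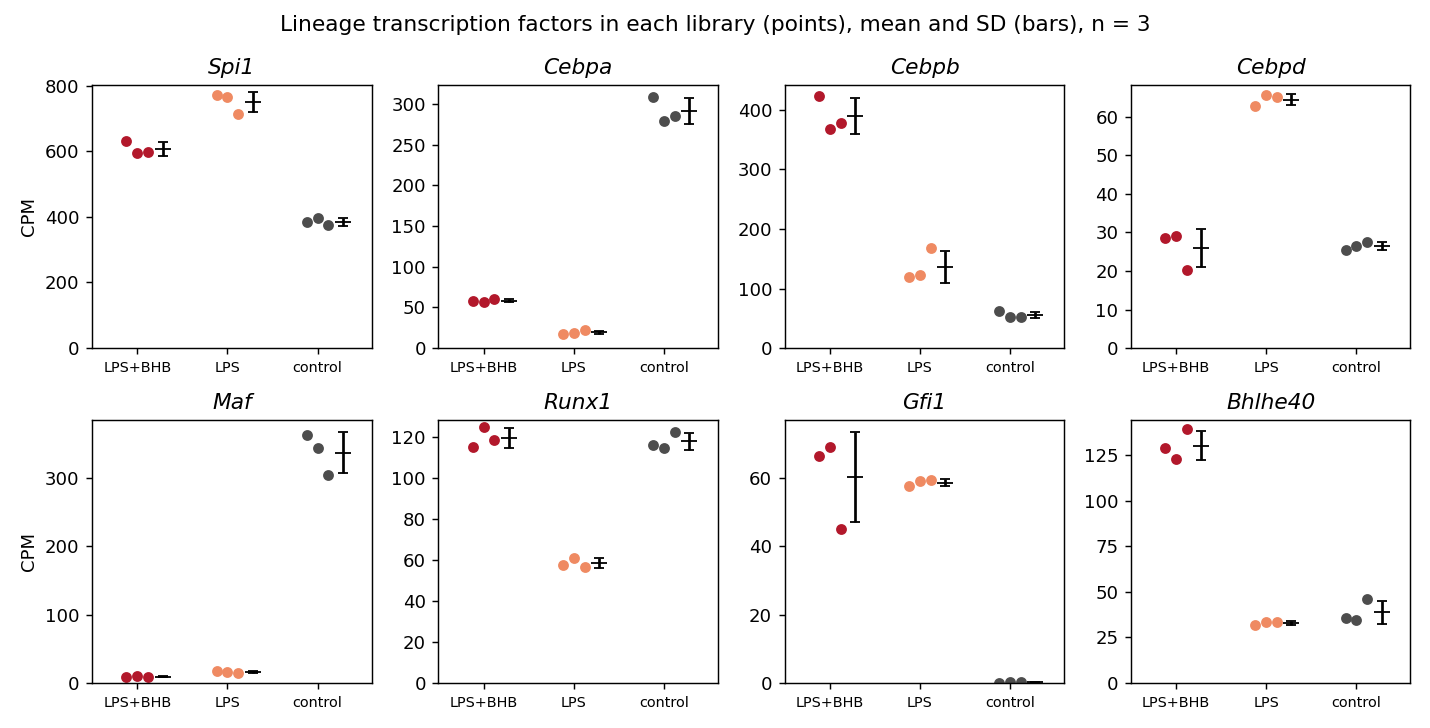
CPM of the 8 genes (1 panel each, y axes start at 0 and differ) in LPS plus BHB, LPS and control libraries. Points are libraries and bars are mean and SD of 3. Cebpa and Maf are highest in control, Spi1 and Cebpd in LPS, Cebpb and Bhlhe40 in LPS plus BHB, Runx1 is lowest in LPS, and Gfi1 is near 0 in control.

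Runx1, which acts with PU.1 early in blood cell formation and lies at chr16:92601466-92826149 on the minus strand, was lower with LPS but not when BHB was also given. It had 115, 125 and 119 CPM in LPS plus BHB, 57.4, 61.0 and 56.4 CPM in LPS, and 116, 115 and 122 CPM in control. The LPS libraries lay below all others, while the LPS plus BHB and control libraries overlapped. The log2 fold change was 1.04 (SE 0.05, edgeR adjusted p = 6.82e-13) in LPS plus BHB against LPS and -1.02 (SE 0.05, edgeR adjusted p = 8.74e-14) in LPS against control. LPS plus BHB against control gave 0.02 with a 95% interval of -0.08 to 0.12 and was not called (edgeR adjusted p = 0.724). Scaled by library totals alone, that last difference was -0.31 (edgeR adjusted p = 8.96e-06), so the level shared with control holds only under TMM-like scaling.

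Cbfb, which encodes the obligate partner of RUNX proteins, had a pattern of the same order and a smaller size. It averaged 107 ± 3.69 CPM in LPS plus BHB, 80.2 ± 3.51 CPM in LPS and 107 ± 5.13 CPM in control (SD, n = 3 each). It was called in LPS plus BHB against LPS (log2 fold change 0.41, SE 0.05, edgeR adjusted p = 8.92e-07) and in LPS against control (-0.41, SE 0.05, edgeR adjusted p = 2.32e-07). Runx2, a relative better known in bone, averaged 40.3 ± 4.14 CPM in LPS plus BHB, 17.7 ± 1.04 CPM in LPS and 17.2 ± 0.297 CPM in control. Its log2 fold change was 1.19 (SE 0.08, edgeR adjusted p = 1.27e-10) in LPS plus BHB against LPS and 0.04 (SE 0.08, edgeR adjusted p = 0.644) in LPS against control.

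The 3 C/EBP genes each had their highest level in a different group. Cebpa, a single-exon gene at chr7:35119293-35121928 on the plus strand, encodes the C/EBP protein of myeloid progenitors and resting macrophages. It had 57.5, 56.8 and 60.1 CPM in LPS plus BHB, 17.7, 18.1 and 21.9 CPM in LPS, and 309, 279 and 286 CPM in control. The 3 groups were far apart: LPS libraries were 15.2-fold lower than control, and LPS plus BHB libraries stood between, 3.03-fold above LPS and 5.01-fold below control in the means. The log2 fold change was 1.60 (SE 0.07, edgeR adjusted p = 2.16e-13) in LPS plus BHB against LPS, -3.92 (SE 0.07, edgeR adjusted p = 1.16e-20) in LPS against control and -2.32 (SE 0.06, edgeR adjusted p = 6.95e-18) in LPS plus BHB against control.

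Cebpb, also of a single exon, at chr2:167688915-167690418 on the plus strand, encodes the C/EBP protein that LPS is known to induce. Its libraries had 423, 367 and 378 CPM in LPS plus BHB, 119, 123 and 167 CPM in LPS, and 61.5, 51.9 and 52.7 CPM in control. No groups overlapped, and the order was LPS plus BHB, LPS, control. Means differed 2.85-fold between LPS plus BHB and LPS (log2 fold change 1.51, SE 0.15, edgeR adjusted p = 9.06e-05) and 2.47-fold between LPS and control (1.30, SE 0.15, edgeR adjusted p = 0.000116). The LPS plus BHB mean was 7.04-fold that of control (log2 fold change 2.82, SE 0.15, edgeR adjusted p = 1.24e-06). Cebpb shares 312 exon bases with Tmem189 on the opposite strand. Tmem189 had 120 to 136 CPM in LPS plus BHB, 114 to 124 CPM in LPS and 192 to 201 CPM in control, so its levels did not follow those of Cebpb.

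Cebpd, at chr16:15887286-15891031 on the plus strand, encodes another LPS-inducible C/EBP protein and did not follow Cebpb. It had 28.5, 29.2 and 20.4 CPM in LPS plus BHB, 62.8, 65.5 and 65.2 CPM in LPS, and 25.3, 26.4 and 27.4 CPM in control. The LPS libraries stood above all others, and the LPS plus BHB libraries lay on both sides of control, with replicate 3 the lowest of all 9. The log2 fold change was -1.31 (SE 0.10, edgeR adjusted p = 2.48e-08) in LPS plus BHB against LPS and 1.29 (SE 0.10, edgeR adjusted p = 5.81e-09) in LPS against control. In LPS plus BHB against control it was -0.02 with a 95% interval of -0.24 to 0.20 and was not called (edgeR adjusted p = 0.863). With library totals alone this last value was -0.35 (edgeR adjusted p = 0.00488). Cebpd shares 562 exon bases with Spidr on the opposite strand, which had medians of 12.7 CPM in LPS plus BHB, 11.5 CPM in LPS and 13.5 CPM in control.

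Ratios within a library do not depend on scaling between libraries. The count of Cebpb over that of Cebpa was 7.36, 6.46 and 6.29 in LPS plus BHB, 6.72, 6.82 and 7.66 in LPS and 0.199, 0.186 and 0.184 in control. Cebpb counts thus exceeded Cebpa counts in all 6 LPS-treated libraries and were below them in all 3 control libraries. The mean log2 ratio was 5.22 higher in LPS than in control, a 37.2-fold difference (exact permutation p = 0.1, two-sided). LPS plus BHB against LPS differed by -0.08 (exact permutation p = 0.5), and the ratios overlapped. Cebpd over Cebpa was 0.496, 0.514 and 0.339 in LPS plus BHB, 3.54, 3.62 and 2.98 in LPS and 0.0820, 0.0947 and 0.0960 in control. Cebpb over Cebpd was 14.8, 12.6 and 18.6 in LPS plus BHB, against 1.90, 1.88 and 2.57 in LPS, a 7.23-fold difference (exact permutation p = 0.1). In control it was 2.43, 1.96 and 1.92, which overlapped LPS (exact permutation p = 1 for LPS against control). With 3 libraries against 3 the smallest p possible is 0.1, and over the 13 ratio tests that gave a value the smallest adjusted p was 0.13.

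**Figure D2:**
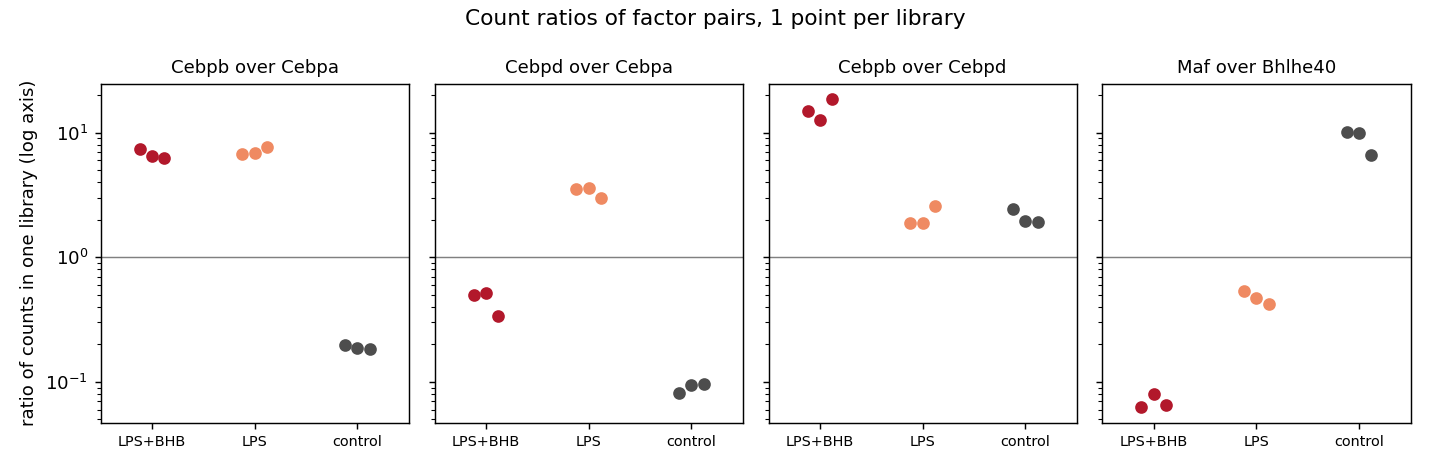
Ratio of counts of gene pairs within a library (log axis), 1 point per library, for LPS plus BHB, LPS and control. Cebpb over Cebpa lies between 6.29 and 7.66 in all LPS-treated libraries and at or below 0.199 in control, whereas Cebpb over Cebpd is at least 12.6 in LPS plus BHB and at most 2.57 elsewhere.

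Per base of exon, the 5 C/EBP family genes Cebpa, Cebpb, Cebpd, Cebpe and Cebpg summed to 311 ± 20.5 CPM per kb in LPS plus BHB, 139 ± 18.9 in LPS and 170 ± 9.49 in control (SD, n = 3 each). Cebpb made up 83.1% ± 1.04 of that sum in LPS plus BHB, 65.0% ± 3.69 in LPS and 21.6% ± 0.862 in control. The share of Cebpa was 7.11% ± 0.534 in LPS plus BHB, 5.25% ± 0.0888 in LPS and 65.1% ± 0.490 in control. Cebpd made up 2.23% ± 0.408 in LPS plus BHB, 12.5% ± 1.47 in LPS and 4.16% ± 0.369 in control. The C/EBP protein that lacks an activation domain is encoded by Cebpg, which had 7.45% ± 0.560 in LPS plus BHB, 17.1% ± 2.08 in LPS and 8.92% ± 0.551 in control. Cebpe, a granulocyte gene, held under 1 percent in each group.

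**Figure D3:**
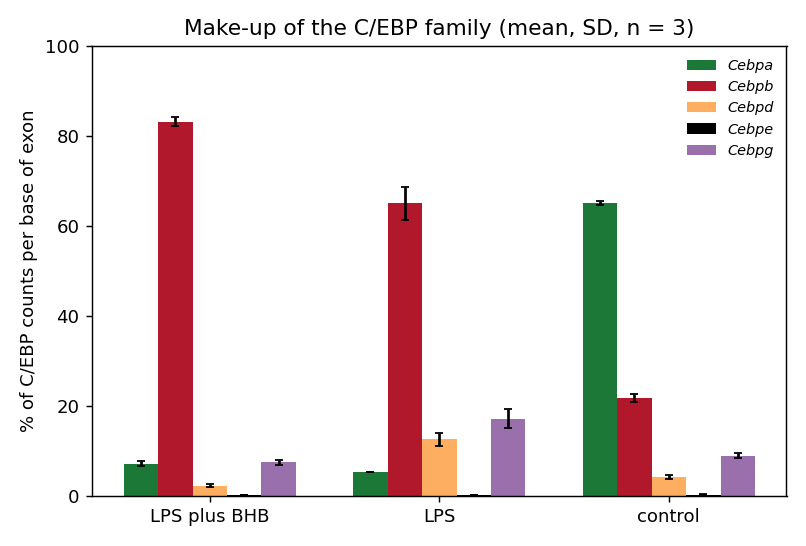
Share (%) of each C/EBP family gene in the family's counts per base of exon, by group, as mean with SD of 3 libraries. Cebpb is the tallest bar in LPS plus BHB (83.1%) and in LPS (65.0%), and Cebpa in control (65.1%).

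Maf, at chr8:115682942-115707794 on the minus strand, fell further than any other of the 8 genes. It had 8.04, 9.93 and 9.03 CPM in LPS plus BHB, 16.9, 15.8 and 14.2 CPM in LPS, and 363, 344 and 304 CPM in control. None of the groups overlapped, and BHB went with a lower level than LPS alone. The mean in LPS was 21.6-fold below control (log2 fold change -4.43, SE 0.08, edgeR adjusted p = 1.70e-17) and that in LPS plus BHB 37.5-fold below control (-5.23, SE 0.09, edgeR adjusted p = 4.91e-18). LPS plus BHB against LPS gave -0.80 (SE 0.10, edgeR adjusted p = 4.96e-06). The small MAF protein gene Mafk averaged 36.4 ± 3.85 CPM in LPS plus BHB against 74.2 ± 4.64 CPM in LPS (log2 fold change -1.02, SE 0.07, edgeR adjusted p = 1.32e-10). Another small MAF gene, Maff, averaged 154 ± 11.1 CPM in LPS against 2.33 ± 0.530 CPM in control (log2 fold change 6.04, SE 0.10, edgeR adjusted p = 1.83e-20).

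Bhlhe40, at chr6:108660629-108666925 on the plus strand, changed mainly where BHB was present. It had 129, 123 and 139 CPM in LPS plus BHB, 31.8, 33.3 and 33.7 CPM in LPS, and 35.8, 34.6 and 45.8 CPM in control. The mean in LPS plus BHB was 3.96-fold that in LPS and 3.37-fold that in control, while the LPS and control libraries did not overlap but lay close. LPS plus BHB against LPS gave a log2 fold change of 1.99 (SE 0.09, edgeR adjusted p = 2.30e-10), and LPS plus BHB against control gave 1.75 (SE 0.09, edgeR adjusted p = 1.32e-10). LPS against control gave -0.23 (SE 0.09, edgeR adjusted p = 0.0315). Control replicate 3 sets much of this small difference, which was -0.10 without it (edgeR adjusted p = 0.193).

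Maf and Bhlhe40 moved in opposite directions with BHB. The Maf count over the Bhlhe40 count was 0.0624, 0.0807 and 0.0649 in LPS plus BHB, 0.534, 0.473 and 0.421 in LPS, and 10.2, 9.94 and 6.63 in control. Ratios in the 3 groups did not overlap, and the difference in mean log2 ratio was -2.78 for LPS plus BHB against LPS and -4.21 for LPS against control (exact permutation p = 0.1 each).

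Gfi1, at chr5:107716657-107726036 on the minus strand, was almost confined to LPS-treated cells. It had 66.3, 69.2 and 45.1 CPM in LPS plus BHB, 57.5, 59.1 and 59.3 CPM in LPS, and 0, 0.268 and 0.193 CPM in control, which are 0, 10 and 7 counts. The treated groups overlapped each other and were far from control. LPS plus BHB against LPS gave a log2 fold change of 0.04 with a 95% interval of -0.37 to 0.45 and was not called (edgeR adjusted p = 0.878). Without LPS plus BHB replicate 3, the lowest of the treated libraries, the value was 0.21 (SE 0.08, edgeR adjusted p = 0.0502). Against control the adjusted p of edgeR was 1.15e-07 for LPS plus BHB and 1.10e-07 for LPS. Gfi1 shares 101 exon bases with A430072P03Rik on the opposite strand, which had at most 1.96 CPM in any library. The mean of LPS plus BHB was 392-fold, and that of LPS 382-fold, the mean of all 3 control libraries, which rests on the 10 and 7 counts of replicates 2 and 3. Against control replicate 1 alone, with a floor of 3 counts for its 0, Gfi1 was at least 713-fold higher in LPS plus BHB and at least 694-fold higher in LPS. The log2 fold change in LPS against control was 8.52, and it was 7.96 without control replicate 1 and 9.17 without replicate 2. Without replicates 2 and 3 it was 13.78, but the only control library left had 0 counts, so that value does not measure a size.

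The few Gfi1 counts in control replicates 2 and 3 amounted to 0.457% and 0.329% of the LPS mean. Of 5 genes that LPS is known to induce, Nos2 stood at 0.364% and 0.308% in those libraries, Il12b at 0.513% and 0.505%, Csf2 at 0.391% and 0.328%, Il6 at 0.559% and 0.647% and Acod1 at 0.823% and 0.882%. In control replicate 1 Gfi1, Nos2, Il12b and Csf2 were at 0, while Il6 had 4 counts and Acod1 had 24. The part of this in the low control level of Gfi1 was not tested. The ratio of Gfi1 to Spi1 counts was 0.105, 0.117 and 0.0757 in LPS plus BHB and 0.0746, 0.0772 and 0.0831 in LPS, so the groups overlapped (difference in mean log2 ratio 0.32, exact permutation p = 0.3).

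Between LPS plus BHB and LPS, 7 of the 8 genes were called, against 50.7% of all genes tested. Of the 7, Cebpa, Cebpb, Runx1 and Bhlhe40 were higher (4 of 8, against 26.4% of all genes) and Spi1, Cebpd and Maf lower (3 of 8, against 24.4%). Changes of at least 2-fold were called for 5 of the 8, against 11.2% of all genes, and the groups did not overlap for 7 of the 8, against 56.7%. The median absolute log2 fold change was 1.17 over the 8 genes and 0.34 over all genes tested. In LPS against control all 8 were called, against 79.8% of all genes, with Spi1, Cebpb, Cebpd and Gfi1 higher (4 of 8, against 38.4%) and Cebpa, Maf, Runx1 and Bhlhe40 lower (4 of 8, against 41.4%). There 6 of the 8 changed at least 2-fold, against 45% of all genes, and all 8 had groups that did not overlap, against 82.7%. The median absolute change was 1.30 over the 8 genes and 0.90 over all. Between LPS plus BHB and control 6 of the 8 were called, against 78.4% of all genes. Spi1, Cebpb, Gfi1 and Bhlhe40 were higher (4 of 8, against 38%) and Cebpa and Maf lower (2 of 8, against 40.4%). Of the 8, 5 changed at least 2-fold, against 41.5%, and 6 had groups that did not overlap, against 80.2%. These 3 comparisons share libraries, so they are not independent of each other.

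**Figure D4:**
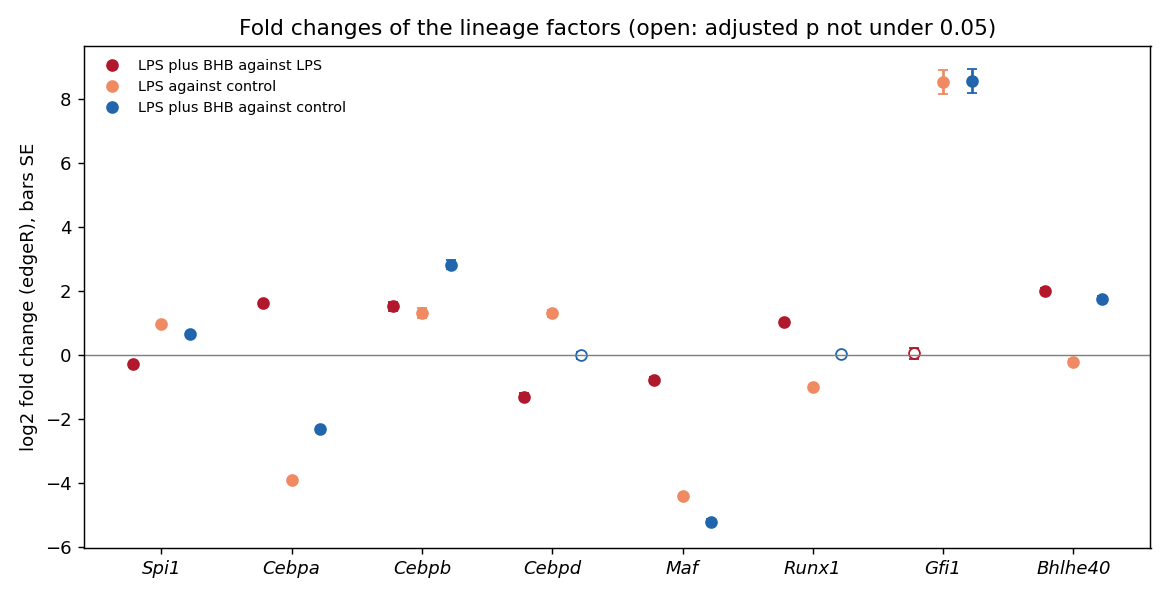
Log2 fold change of the 8 genes with SE in LPS plus BHB against LPS, LPS against control and LPS plus BHB against control. Filled points are called and open points are not. The open points are Gfi1 in the first comparison (0.04) and Cebpd (-0.02) and Runx1 (0.02) in the third.

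Ranked by counts per exon length, the leading genes differed between groups. With LPS plus BHB, Cebpb (259 ± 19.8 CPM per kb) and Spi1 were at the top, followed by Bhlhe40 (27.7 ± 1.73), Cebpa (22.1 ± 0.650), Gfi1 (18.9 ± 4.13), Runx1 (9.93 ± 0.425), Cebpd (6.95 ± 1.31) and Maf (1.09 ± 0.115). In LPS, Spi1 led, followed by Cebpb (90.8 ± 17.8 CPM per kb), Gfi1 (18.4 ± 0.306), Cebpd (17.2 ± 0.404), Cebpa (7.29 ± 0.869), Bhlhe40 (6.999 ± 0.219), Runx1 (4.85 ± 0.199) and Maf (1.90 ± 0.169). In control the order was Spi1, Cebpa (110.5 ± 5.95 CPM per kb), Maf (40.9 ± 3.68), Cebpb (36.8 ± 3.56), Runx1 (9.80 ± 0.342), Bhlhe40 (8.23 ± 1.31), Cebpd (7.05 ± 0.281) and Gfi1 (0.0482 ± 0.0433), all as SD with n = 3. Neighbours whose means differed by less than the sum of their SDs were Cebpa and Gfi1 in LPS plus BHB and Cebpa and Bhlhe40 in LPS. In control they were Maf and Cebpb, Runx1 and Bhlhe40, and Bhlhe40 and Cebpd. Maf thus stood in the third place of the 8 in control and the last in both treated groups.

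The genes nearest to each factor in pattern were found over the 9 libraries as the smallest distance between centred log2 CPM, among 9321 genes averaging 5 CPM or more. For Spi1 they were Bcl10, an adaptor of NF-kB signalling, and Ddb1, a subunit of a ubiquitin ligase, with root mean square differences of 0.03 and 0.05 on the log2 scale. Those of Cebpa were Gm15441 (0.10) and the sodium-calcium exchanger gene Slc8a1 (0.12), and those of Cebpb the glycogen synthase gene Gys1 (0.16) and Plekha5 (0.18). Cebpd was nearest to Gle1 (0.08) and Wdr77 (0.09), and Maf to Rab7b (0.16) and Nrcam (0.25). Tns3 (0.06) and Heatr5a (0.08) were nearest to Runx1. For example, Tns3 averaged 433 CPM in LPS plus BHB, 216 CPM in LPS and 448 CPM in control. Bhlhe40 was nearest to the kinase gene Bmp2k (0.12) and to Layn (0.14), and Gfi1, with the poorest match, to Cd40 (0.38) and Gbp5 (0.41).

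Among 36 tested genes of a list of other myeloid lineage factors, 16 were higher and 10 lower in LPS plus BHB against LPS, with a median log2 fold change of 0.42 against 0.01 over all genes. In LPS against control 11 were higher and 22 lower, with a median of -1.05 against -0.06. Beside the counts of this and the lists that follow, 26.4% of all genes tested were higher and 24.4% lower in LPS plus BHB against LPS, and 38.4% and 41.4% in LPS against control. The smallest p in LPS plus BHB against LPS belonged to Mitf, Id3 and Bcl6. Mitf, a regulator of lysosomal and osteoclast genes, averaged 594 ± 11.4 CPM in LPS plus BHB against 275 ± 6.01 CPM in LPS (log2 fold change 1.11, SE 0.05, edgeR adjusted p = 4.55e-14). Id3, an inhibitor of E proteins, averaged 80.7 ± 3.58 CPM against 26.1 ± 0.831 CPM in LPS (log2 fold change 1.63, SE 0.06, edgeR adjusted p = 2.43e-14). The repressor gene Bcl6 averaged 112 ± 5.44 CPM in LPS plus BHB against 49.2 ± 2.39 CPM in LPS (1.18, SE 0.06, edgeR adjusted p = 3.16e-13). With LPS against control, Lyl1 had a mean of 0.663 ± 0.115 CPM in LPS against 95.7 ± 0.635 CPM in control, and Mef2c 2.29 ± 0.188 CPM in LPS against 168 ± 8.72 CPM in control. Lyl1, a factor of blood progenitors, had a log2 fold change of -7.16 (SE 0.11, edgeR adjusted p = 3.37e-22) and Mef2c one of -6.20 (SE 0.09, edgeR adjusted p = 2.07e-22).

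Among 18 tested relatives and partners of the 8 genes, 6 were higher and 5 lower in LPS plus BHB against LPS, and 7 higher and 6 lower in LPS against control (10 lower with library totals). These counts are near the shares over all genes, and the median log2 fold changes were 0.10 and -0.00. Bach2, a repressor that pairs with small MAF proteins, averaged 7.39 ± 0.817 CPM in LPS plus BHB against 0.644 ± 0.328 CPM in LPS (log2 fold change 3.51, SE 0.26, edgeR adjusted p = 3.30e-10). Ddit3, the stress-induced C/EBP relative also called CHOP, averaged 353 ± 21.4 CPM in LPS against 23.6 ± 1.20 CPM in control (3.90, SE 0.06, edgeR adjusted p = 3.82e-22). Of the 12 chromatin partners of GFI1 on the list, 7 were higher and 1 lower in LPS plus BHB against LPS, and 5 were higher and 5 lower in LPS against control. The 1 lower gene was lost without LPS replicate 1 or 2 or LPS plus BHB replicate 3. Their members Rcor2, Gse1 and Zmynd8 averaged 33.2 ± 2.12, 54.7 ± 6.96 and 36.3 ± 3.55 CPM in LPS plus BHB, against 7.83 ± 0.532, 14.5 ± 1.42 and 17.1 ± 0.876 CPM in LPS. The log2 fold changes were 2.08 for Rcor2, 1.92 for Gse1 and 1.08 for Zmynd8, with edgeR adjusted p of 2.93e-13, 2.70e-12 and 1.57e-10. In LPS against control Rcor2 was higher (3.48, edgeR adjusted p = 6.01e-15), and Gse1 (-2.27, edgeR adjusted p = 1.87e-14) and Zmynd8 (-2.58, edgeR adjusted p = 5.22e-18) were lower.

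Of 27 tested genes known to need PU.1, 15 were higher and 2 lower in LPS plus BHB against LPS, against 26.4% and 24.4% of all genes, and 7 were higher and 19 lower in LPS against control, against 38.4% and 41.4%. Their median log2 fold changes were 0.21 and -0.93, against 0.01 and -0.06 over all genes. Leaving out LPS replicate 1 or LPS plus BHB replicate 3 took the 2 lower genes to 1. Cd14, the LPS co-receptor, averaged 5765 ± 218 CPM in LPS plus BHB against 1651 ± 87.9 CPM in LPS (log2 fold change 1.80, SE 0.05, edgeR adjusted p = 3.06e-16). Ncf1, a subunit of the phagocyte oxidase, averaged 1061 ± 27.3 CPM against 458 ± 13.8 CPM in LPS (1.21, SE 0.04, edgeR adjusted p = 5.91e-15), and Csf2rb 547 ± 22.4 CPM against 249.03 ± 6.60 CPM in LPS (1.14, SE 0.04, edgeR adjusted p = 1.30e-14). The Fc receptor genes Fcgr1 and Fcgr3 averaged 1.78 ± 0.294 and 28.2 ± 2.62 CPM in LPS, against 161 ± 16.3 and 417 ± 14.7 CPM in control. Their log2 fold changes were -6.49 and -3.89, with edgeR adjusted p of 1.88e-21 and 7.53e-21. Csf1r, the receptor for the macrophage growth factor, averaged 1049 ± 10.6 CPM in LPS plus BHB, 629 ± 31.6 CPM in LPS and 2509 ± 94.8 CPM in control. It was called in LPS plus BHB against LPS (0.74, SE 0.05, edgeR adjusted p = 8.31e-11) and in LPS against control (-1.997, SE 0.05, edgeR adjusted p = 9.03e-19).

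Of 23 tested genes known to be driven by C/EBP proteins, 16 were higher and 5 lower in LPS against control. In LPS plus BHB against LPS 7 were higher and 4 lower. Their median log2 fold changes were 4.94 and 0.11, against -0.06 and 0.01 over all genes. Csf3r and Mgst1, given below, are among the 5 lower in LPS against control. The counts in LPS plus BHB against LPS depended on single libraries: 3 were higher without LPS replicate 2 or 3, 4 without LPS plus BHB replicate 1, and 8 were lower without control replicate 1. Without any single one of LPS replicates 1 to 3 or LPS plus BHB replicates 2 and 3, 2 were lower. Csf3r, the receptor for granulocyte colony-stimulating factor, averaged 42.6 ± 1.85 CPM in LPS against 254 ± 6.12 CPM in control (-2.57, SE 0.05, edgeR adjusted p = 1.24e-20), and Mgst1 39.7 ± 1.81 CPM against 138 ± 7.20 CPM (-1.80, SE 0.05, edgeR adjusted p = 1.64e-17). Slpi, an antiprotease gene, averaged 28.5 ± 0.475 CPM in LPS plus BHB against 16.8 ± 0.849 CPM in LPS (0.76, SE 0.08, edgeR adjusted p = 1.04e-07), and Il4ra 74.6 ± 1.34 CPM against 55.1 ± 3.77 CPM (0.44, SE 0.07, edgeR adjusted p = 2.32e-05).

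Of 13 tested genes known to be driven by MAF proteins, 12 were lower and 1 higher in LPS against control, with a median log2 fold change of -1.92. In LPS plus BHB against LPS, where Maf was lower, 7 were higher and 2 lower, or 1 lower without LPS replicate 1. The part of Maf in these counts was not tested. C1qa averaged 30.7 ± 3.00 CPM in LPS plus BHB, 15.3 ± 1.97 CPM in LPS and 70.4 ± 5.74 CPM in control. Its log2 fold change was 1.01 (SE 0.10, edgeR adjusted p = 4.98e-08) in LPS plus BHB against LPS and -2.20 (SE 0.09, edgeR adjusted p = 4.60e-14) in LPS against control. F13a1, a coagulation factor subunit, averaged 12.5 ± 1.30 CPM in LPS plus BHB against 3.07 ± 0.937 CPM in LPS (2.02, SE 0.16, edgeR adjusted p = 2.15e-09). Stab1, a scavenger receptor, averaged 72.6 ± 8.79 CPM in LPS against 924 ± 61.7 CPM in control (-3.67, SE 0.09, edgeR adjusted p = 1.55e-13).

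Il10, which encodes an anti-inflammatory cytokine, is known both as a c-MAF target and as a gene repressed by BHLHE40. It averaged 238 ± 41.4 CPM in LPS plus BHB, 31.2 ± 4.596 CPM in LPS and 1.17 ± 0.768 CPM in control (SD, n = 3 each). Its log2 fold change was 2.94 (SE 0.23, edgeR adjusted p = 4.54e-05) in LPS plus BHB against LPS and 4.71 (SE 0.38, edgeR adjusted p = 2.22e-05) in LPS against control. The second value rests on low control counts of Il10, 12, 50 and 67 in replicates 1, 2 and 3. Il10 was highest in the libraries in which Maf was lowest and Bhlhe40 highest. A link between these RNA levels was not tested. Of the 5 tested genes known to be repressed by BHLHE40, 3 were higher and 1 lower in LPS plus BHB against LPS. In LPS against control 2 were higher and 2 lower. Among the 5 genes Per1, of the circadian clock, averaged 25.7 ± 3.33 CPM in LPS plus BHB, 13.5 ± 0.231 CPM in LPS and 29.9 ± 2.03 CPM in control. Per1 was called higher in LPS plus BHB against LPS (0.93, SE 0.09, edgeR adjusted p = 4.12e-08) and lower in LPS against control (-1.15, SE 0.09, edgeR adjusted p = 2.49e-10). Clock averaged 116 ± 3.05 CPM in LPS against 48.5 ± 2.00 CPM in control (1.26, SE 0.05, edgeR adjusted p = 8.30e-16).

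Of 13 tested genes known to be repressed by GFI1, 4 were higher and 5 lower in LPS plus BHB against LPS, against 26.4% and 24.4% of all genes, and 4 higher and 6 lower in LPS against control, against 38.4% and 41.4%. The counts in LPS against control are near those shares. Irf8, which drives the monocyte fate, averaged 55.4 ± 3.12 CPM in LPS plus BHB, 114 ± 5.78 CPM in LPS and 331 ± 11.3 CPM in control. Its log2 fold change was -1.04 (SE 0.05, edgeR adjusted p = 1.19e-12) in LPS plus BHB against LPS and -1.54 (SE 0.05, edgeR adjusted p = 7.35e-17) in LPS against control. The cell cycle inhibitor gene Cdkn1a averaged 993 ± 50.7 CPM in LPS plus BHB, 1474 ± 101 CPM in LPS and 107 ± 5.31 CPM in control. Cdkn1a had a log2 fold change of -0.57 (SE 0.06, edgeR adjusted p = 2.76e-08) in LPS plus BHB against LPS and 3.79 (SE 0.06, edgeR adjusted p = 1.25e-21) in LPS against control.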

How the data were processed

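Per the labels, RNA was extracted with Trizol and standard Illumina libraries were made. Reads were aligned with HISAT2 to mm10, per the submitters' processing notes. What counted the reads, with which annotation and strand setting, is not stated in these sources, so reads of overlapping antisense genes may be mixed. The deposited values are the authors' raw counts per gene symbol. Genes with too few counts were removed (filterByExpr, minimum count 10), leaving 14026 genes with 99.956% of the counts. Counts were scaled by TMM and tested with edgeR 4.0.16 (R 4.3.3) over all 9 libraries, two-sided, with Benjamini-Hochberg adjustment. CPM errors are SD, and SE is the absolute log2 fold change over the square root of F. Exon lengths and coordinates are those of the GRCm38 annotation. Ratios were compared by exact permutation. The floor of 3 counts covers counting error only. Genes named are the 8 factors, the 3 with the smallest p per list and comparison, the 2 nearest in pattern and counterparts set with the lists, beside others named as overlapping or as LPS-induced. Some genes that this rule selects are not reported here. The members and lists were chosen with earlier results of these data known, and the TGACG and TATAAA motifs after the promoters were read. The test was also run on simulated data in which 200 genes were changed. That is far fewer than were called here, so the run cannot check the scaling. Replicate numbers were not used to pair libraries in the main test. Alternatives were DESeq2 1.42.0, other scalings, no filter, a replicate block, 6-library fits and left-out libraries.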

Additional observations from a re-analysis of the deposited data

How the results depend on the processing

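Each of the 8 genes' fold changes was recomputed under 16 alternatives, and 367 of 384 values kept their direction and their side of the threshold. With library totals in place of TMM, Runx1 in LPS plus BHB against control reversed to -0.31 (edgeR adjusted p = 8.96e-06), and Cebpd joined it as called lower, so that 4 of the 8 genes were lower there in place of 2. These totals take the median of all genes down by the shifts given with the results. The small difference of Bhlhe40 in LPS against control ranged from -0.51 to -0.10 and lost its call under DESeq2's size factors within edgeR (adjusted p = 0.0574), without control replicate 3 (0.193), without each LPS replicate (0.0617 to 0.102) and without control replicates 2 and 3 (0.222). With the replicate block, 4 genes were higher and 3 lower in LPS plus BHB against LPS, 4 and 4 in LPS against control and 4 and 2 in LPS plus BHB against control, as without it. Deviations of samples with the same number correlated weakly (at most 0.0392), yet 6 of 9 libraries correlated best with their own number. Values near 0 that were not called also changed sign without gaining a call. With single libraries left out, Gfi1 in LPS plus BHB against LPS ran from -0.0724 to 0.2086, and in LPS plus BHB against control Runx1 ran from -0.0141 to 0.0485 and Cebpd from -0.11 to 0.1276. Gfi1 was -0.0135 with library totals, and Cebpd was 0.0043 with DESeq2's size factors within edgeR, 0.0039 with DESeq2 and 0.0389 without control replicates 2 and 3. The log2 ratio of Cebpb over Cebpd in LPS against control ran from -0.147 to 0.1085 with single libraries left out and was -0.2144 without control replicates 2 and 3. Low counts limit Gfi1 in control, where its log2 fold change ran from 7.96 to 13.78 in LPS and from 8.00 to 13.81 in LPS plus BHB. The upper ends are from the fit without control replicates 2 and 3, in which the only control library had 0 counts, and do not measure a size.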

Other observations

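The MiT family beside Mitf did not move as a unit. Tfec, a macrophage member of that family, averaged 91.1 ± 9.79 CPM in LPS plus BHB, 230 ± 1.99 CPM in LPS and 11.9 ± 1.01 CPM in control (SD, n = 3 each), with log2 fold changes of -1.33 (edgeR adjusted p = 3.45e-12) in LPS plus BHB against LPS and 4.27 (edgeR adjusted p = 1.19e-19) in LPS against control. Tfeb was lower in both comparisons (-0.37 and -1.77, edgeR adjusted p = 9.44e-05 and 2.30e-16), while Tfe3 was higher in LPS plus BHB against LPS (0.49, edgeR adjusted p = 2.93e-08) and lower in LPS against control (-1.04, edgeR adjusted p = 2.17e-14). These genes were chosen after their values were seen.

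Summed markers of other cells were low or rested on few genes. Lymphocyte markers summed to 4.09 to 4.93 CPM in LPS plus BHB, 4.25 to 5.63 CPM in LPS and 14.0 to 15.8 CPM in control. Stromal markers reached 134 to 163 CPM in LPS plus BHB, 100.2 to 111 CPM in LPS and 12.3 to 20.6 CPM in control, of which Pdgfrb averaged 98.5 ± 3.37 CPM in LPS and 3.54 ± 0.639 CPM in control. Dendritic cell markers reached 676 to 761 CPM in LPS plus BHB, 1107 to 1196 CPM in LPS and 532 to 682 CPM in control. Cd83, an activation gene on that list, averaged 677 ± 3.37 CPM in LPS and 61.8 ± 2.51 CPM in control. Itgax, the largest part in LPS plus BHB and in control, averaged 369 CPM in LPS plus BHB, 446 CPM in LPS and 523 CPM in control. Of the 6 dendritic cell markers tested, 3 were higher and 2 lower in LPS against control, against 38.4% and 41.4% of all genes. Erythroid and megakaryocyte markers summed to at most 2.20 CPM, and mast cell and basophil markers to at most 1.91 CPM, in any library.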
